A study of Mus musculus with 11 samples.

Results

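The erythroid and heme synthesis genes are a set of 34 mouse genes that red cell precursors use to make haemoglobin, to import iron, to assemble heme and to build the red cell membrane. Members were taken by gene symbol from a table of 14739 genes measured in sorted microglia, and 31 of the 34 were found there, while Ahsp, Ank1 and Trim58 were not analysed here. All 31 passed the minimum mean normalized count of 10. The question put to them was whether genes of red cell precursors, namely Gata1, Klf1 and Tfrc, follow the globin transcripts and Alas2 across libraries. The study sequenced total RNA of Tmem119+ microglia, the resident macrophages of the brain, taken by cell sorting from the cerebrum of old C57BL/6 mice. WT mice were wild type (n = 3), Csf1r_het mice were Csf1r+/- and so carried 1 disrupted copy of the receptor for colony stimulating factor 1 (n = 3), Csf2het mice were Csf2+/- and so carried 1 disrupted copy of the cytokine gene Csf2 (n = 3), and Dhet mice were Csf1r+/-; Csf2+/- (n = 2). Mice were 21 months old, except Csf1r_het replicate 1 at 20 months and Csf1r_het replicate 2 and Dhet replicate 2 at 24 months. The sources used here do not say whether a library came from 1 animal or from several, so p-values measure only the spread between these samples, which may in part be technical.

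Haemoglobin carries oxygen as a tetramer of alpha and beta globin chains, each holding a heme group. Heme is made in a chain of enzymatic steps that in red cell precursors starts with Alas2 and ends with Fech, which inserts iron that has entered the cell through the transferrin receptor Tfrc and the mitochondrion through Slc25a37. The transcription factors Gata1, Klf1 and Tal1 switch these genes on in nucleated precursors in bone marrow and spleen. Reticulocytes, the youngest red cells in blood, have lost the nucleus and keep globin and other late transcripts for a short time. Red cell precursors are the main site of haemoglobin synthesis in the body.

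Promoter sequence shows how the genes that the results turn on differ in the letters that 2 of these factors are known to bind, GATA for Gata1 and CACCC for Klf1. RefSeq windows on GRCm38.p6, covering the 250 bases before the start of transcription, were found for 26 of the 31 members. For Fech, Slc25a37, Slc4a1, Xpo7 and Nfe2 no window was used. The letters AGATAA or TGATAA, searched on both strands, occurred in the windows of 14 of 26 members and in 16.6% of all 32851 windows. The letters CACCC, also on both strands, occurred in 19 of 26 members and in 52.0% of all windows, and the letters CCAAT in 15 of 26 members and in 33.8%. A member was counted if any of its windows matched, whereas the shares of all windows count each window singly. Alad, Uros, Mkrn1, Tfrc and Tal1 had 2 windows and Epb41 had 3, which raises the member counts somewhat against these shares. A match is a description of these letters, not evidence of binding. The stretches below belong to an alpha globin gene, a beta globin gene, Alas2 and Klf1. They end at the base before the first annotated exon and so are shorter than the windows counted above. Capitals mark GATA and CACCC matches.
Hba-a2, chr11:32296242-32296488, plus strand: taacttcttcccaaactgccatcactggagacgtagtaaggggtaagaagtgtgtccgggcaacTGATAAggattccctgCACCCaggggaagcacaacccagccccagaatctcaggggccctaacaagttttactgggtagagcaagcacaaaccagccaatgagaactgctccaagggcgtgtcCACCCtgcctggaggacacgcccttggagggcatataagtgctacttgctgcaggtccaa
Hbb-bt, chr7:103813997-103814173, minus strand: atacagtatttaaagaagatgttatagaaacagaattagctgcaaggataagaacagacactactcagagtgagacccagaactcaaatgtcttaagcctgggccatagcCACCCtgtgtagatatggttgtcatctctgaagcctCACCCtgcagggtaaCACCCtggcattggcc
Alas2, chrX:150547167-150547374, plus strand: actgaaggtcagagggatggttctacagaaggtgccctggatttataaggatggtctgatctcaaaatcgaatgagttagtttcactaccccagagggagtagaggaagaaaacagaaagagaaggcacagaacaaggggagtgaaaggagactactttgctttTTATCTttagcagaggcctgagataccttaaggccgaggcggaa
Klf1, chr8:84901732-84901927, plus strand: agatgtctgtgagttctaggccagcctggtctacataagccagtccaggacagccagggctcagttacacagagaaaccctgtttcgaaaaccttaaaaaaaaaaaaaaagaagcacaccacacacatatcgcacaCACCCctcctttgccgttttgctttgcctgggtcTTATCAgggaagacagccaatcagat
The Hba-a2 stretch holds 1 GATA match, 186 bases before the start, and CACCC matches at 170 and 63 bases. Hbb-bt has CACCC at 140, 104 and 89 bases before its start and no GATA match. In the Alas2 stretch the single match is a GATA match on the minus strand, 86 bases before the start. The full window of Alas2 also held CACCC, outside the stretch shown. Klf1 has a GATA match on the minus strand at 80 bases and a CACCC match at 114 bases.

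Libraries held between 21037819 reads (Csf1r_het replicate 1) and 53081638 reads (Csf2het replicate 2), and between 15829048 and 43064376 reads once the 4 globin genes were set aside. Csf1r stood at 17017 to 40567 normalized counts in the 5 libraries labelled with a disrupted copy and at 41261 to 93319 in the other 6, so these groups did not overlap. Csf2 was not analysed here. Tmem119, the sort marker, was present in every library at 5432 to 31939, with the lowest value in WT replicate 2. Sex-linked genes set Dhet replicate 2 apart from every other library, with Ddx3y at 717 against at most 16.3 elsewhere and Xist at 4.02 against at least 3011. Csf1r_het replicate 2 had 15.6% of all genes at 0 reads, against 4.98% to 9.88% in the other libraries. Values below are normalized counts, that is counts per gene after division by each library's size factor, and all fold changes are on the log2(normalized count + 1) scale.

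The 4 adult globin genes were the most abundant members by far and varied together from library to library, with every genotype group overlapping WT. Per kb of exon, the mean level over the 11 libraries was 6918765 normalized counts for Hba-a2, 4997752 for Hbb-bs, 3610995 for Hba-a1 and 1167527 for Hbb-bt, against 25708 for Alas2. Hba-a1 (ENSMUSG00000069919.7, chr11:32283511-32284465 in mm10, plus strand) encodes an alpha chain and measured 992901, 2770120.5 and 2367949 in WT, 1476213, 10178634 and 2780809 in Csf1r_het, 3066851, 1153739 and 4243860.4 in Csf2het, and 1994776 and 1227553 in Dhet, with replicates in order. Hba-a2 (ENSMUSG00000069917.7, chr11:32296489-32297298, plus strand), the neighbouring alpha copy, measured 1438966, 4386370.1 and 3334638 in WT, 2312793, 16666258 and 4184134 in Csf1r_het, 4606966, 1840379 and 6784493 in Csf2het, and 3043192 and 2164792 in Dhet. In both alpha genes WT replicate 1 was the lowest library and Csf1r_het replicate 2 the highest, and every heterozygous group overlapped WT. Hbb-bs (ENSMUSG00000052305.6, chr7:103826534-103828096, minus strand), a beta chain gene, measured 1457519, 4548846 and 3552462 in WT, 2567934, 9608444 and 4472554 in Csf1r_het, 4371329, 1473448 and 5887495 in Csf2het, and 2611611 and 1669367 in Dhet. Hbb-bt (ENSMUSG00000073940.3, chr7:103812524-103813996, minus strand), its neighbour, measured 281500.1, 810618 and 893687 in WT, 518989.8, 1927938 and 962768 in Csf1r_het, 980524, 328714 and 1396228 in Csf2het, and 594125 and 333398 in Dhet. The beta genes had the same lowest and highest libraries as the alpha genes. Over the 6 pairs of these genes Pearson's r of the log2 values ranged from 0.946 to 0.996 (n = 11 libraries, a description). The split between copies is uncertain, because the coding sequences of Hba-a1 and Hba-a2 are identical at 428 of 429 bases and those of Hbb-bs and Hbb-bt at 443 of 444, whereas Hba-a1 and Hbb-bs are 60.6% identical. Hba-a2 took 58.5% to 63.8% of the alpha counts and Hbb-bt 15.1% to 20.1% of the beta counts.

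The summed haemoglobin transcripts (Hba-a1, Hba-a2, Hbb-bs and Hbb-bt) made up a large share of each library. That share was 16.1%, 28.2% and 32.4% of normalized counts in WT, 24.8%, 58.8% and 33.2% in Csf1r_het, 33.0%, 18.9% and 40.2% in Csf2het, and 26.0% and 22.2% in Dhet. It averaged 25.6% ± 8.46 (SD, n = 3) in WT, 38.9% ± 17.7 (SD, n = 3) in Csf1r_het, 30.7% ± 10.8 (SD, n = 3) in Csf2het and 24.1% ± 2.70 (SD, n = 2) in Dhet, so that the means differed by less than the spread within Csf1r_het. In these bulk samples fewer red cells and less RNA per red cell cannot be told apart. The ratio of alpha to beta transcripts lay between 1.23 and 1.69 in 10 libraries and was 2.33 in Csf1r_het replicate 2. The remaining globin genes correlated with the adult ones, although none of them passed the limma fit on the haemoglobin sum described below. The embryonic chain genes Hba-x and Hbb-bh1 stood at 4.50 to 122 and 9.63 to 149.7 normalized counts. The 5 remaining globin genes measured, which also include Hbb-y, Hbq1a and Hbq1b, had a median r of 0.88 with the haemoglobin sum and of 0.23 with Alas2 (n = 11 libraries). As these genes resemble the adult chains in sequence, part of their counts may be misassigned, which was not tested.

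**Figure D1:**
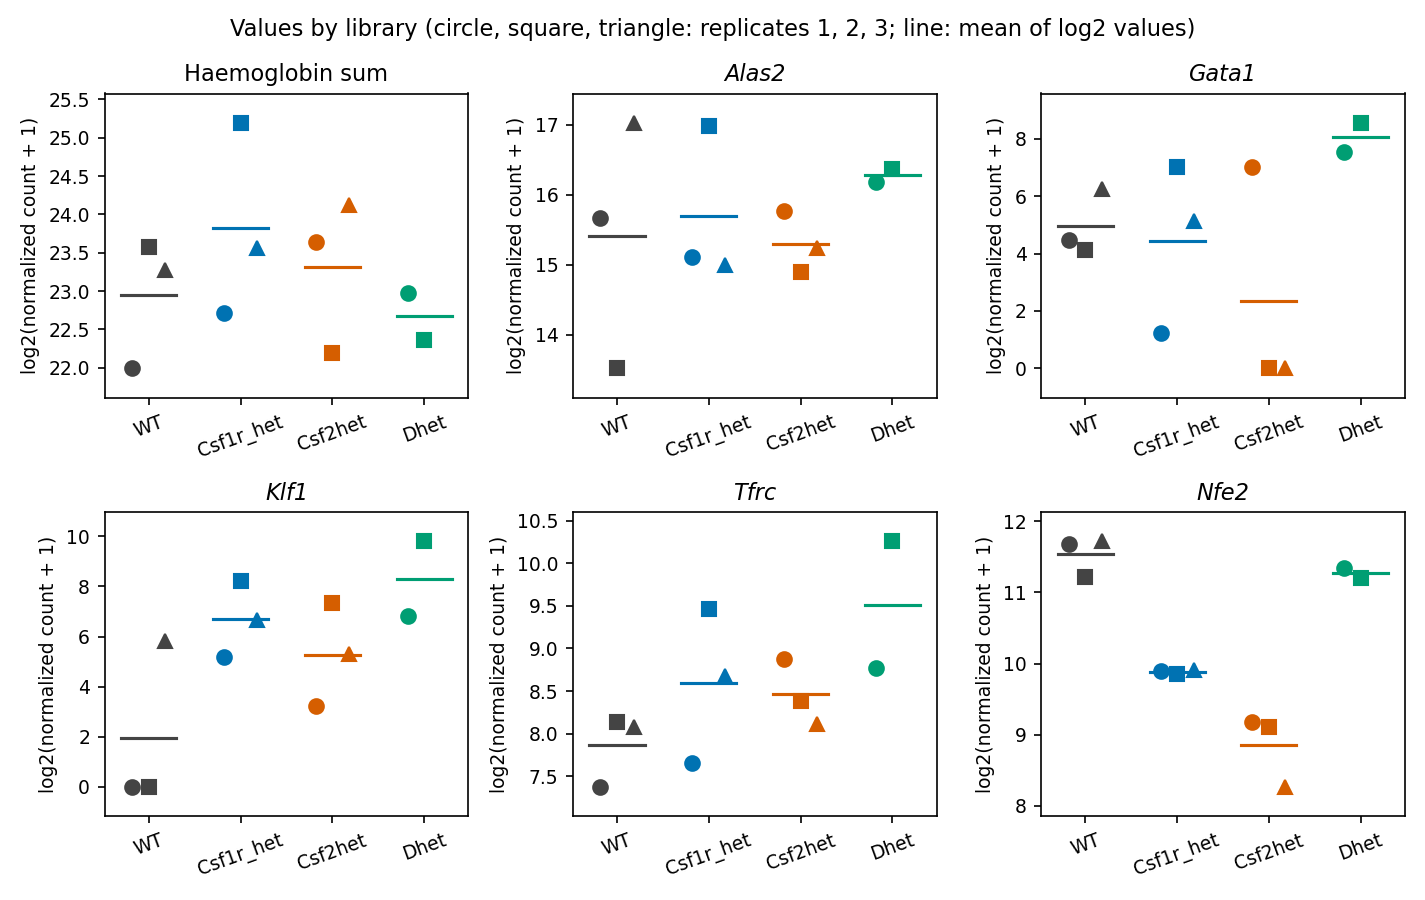
Log2(normalized count + 1) of the haemoglobin sum, Alas2, Gata1, Klf1, Tfrc and Nfe2 in each of 11 libraries, by genotype group; circles, squares and triangles are replicates 1, 2 and 3 and lines are group means of the log2 values. The haemoglobin sum and Alas2 overlap between all groups and put different libraries at the bottom, WT replicate 1 and WT replicate 2, while Nfe2 separates Csf1r_het and Csf2het from WT.

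Alas2, the erythroid enzyme of the first step of heme synthesis, showed no detectable correlation with the globin transcripts over these 11 libraries. It lies at chrX:150547375-150570638 (ENSMUSG00000025270.13, plus strand) and measured 52155, 11749.6 and 133529 in WT, 35436, 129113 and 32748 in Csf1r_het, 55897, 30477 and 38712 in Csf2het, and 74748 and 84979 in Dhet. Group means were 65811 ± 62028 (SD, n = 3) in WT, 65766 ± 54877 (SD, n = 3) in Csf1r_het, 41695 ± 12970.3 (SD, n = 3) in Csf2het and 79864 ± 7235 (SD, n = 2) in Dhet. WT held both the lowest library, replicate 2, and the highest, replicate 3, with an 11.4-fold range over all libraries, so every other group lay within the WT range. Against the haemoglobin sum, r was 0.174 (two-sided permutation test, p = 0.607, n = 11) and Spearman's rho was 0.136 (permutation p = 0.694). Without WT replicate 1 and Csf1r_het replicate 2, the libraries farthest from the median of the haemoglobin sum, r was -0.198 (exact permutation p = 0.616, n = 9). WT replicate 2 shows the split most plainly, with 28.2% haemoglobin transcripts but the lowest Alas2. Counted per 1000 haemoglobin transcripts, Alas2 stood at 12.5, 0.939 and 13.2 in WT, 5.15, 3.36 and 2.64 in Csf1r_het, 4.29, 6.35 and 2.11 in Csf2het, and 9.07 and 15.8 in Dhet.

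**Figure D2:**
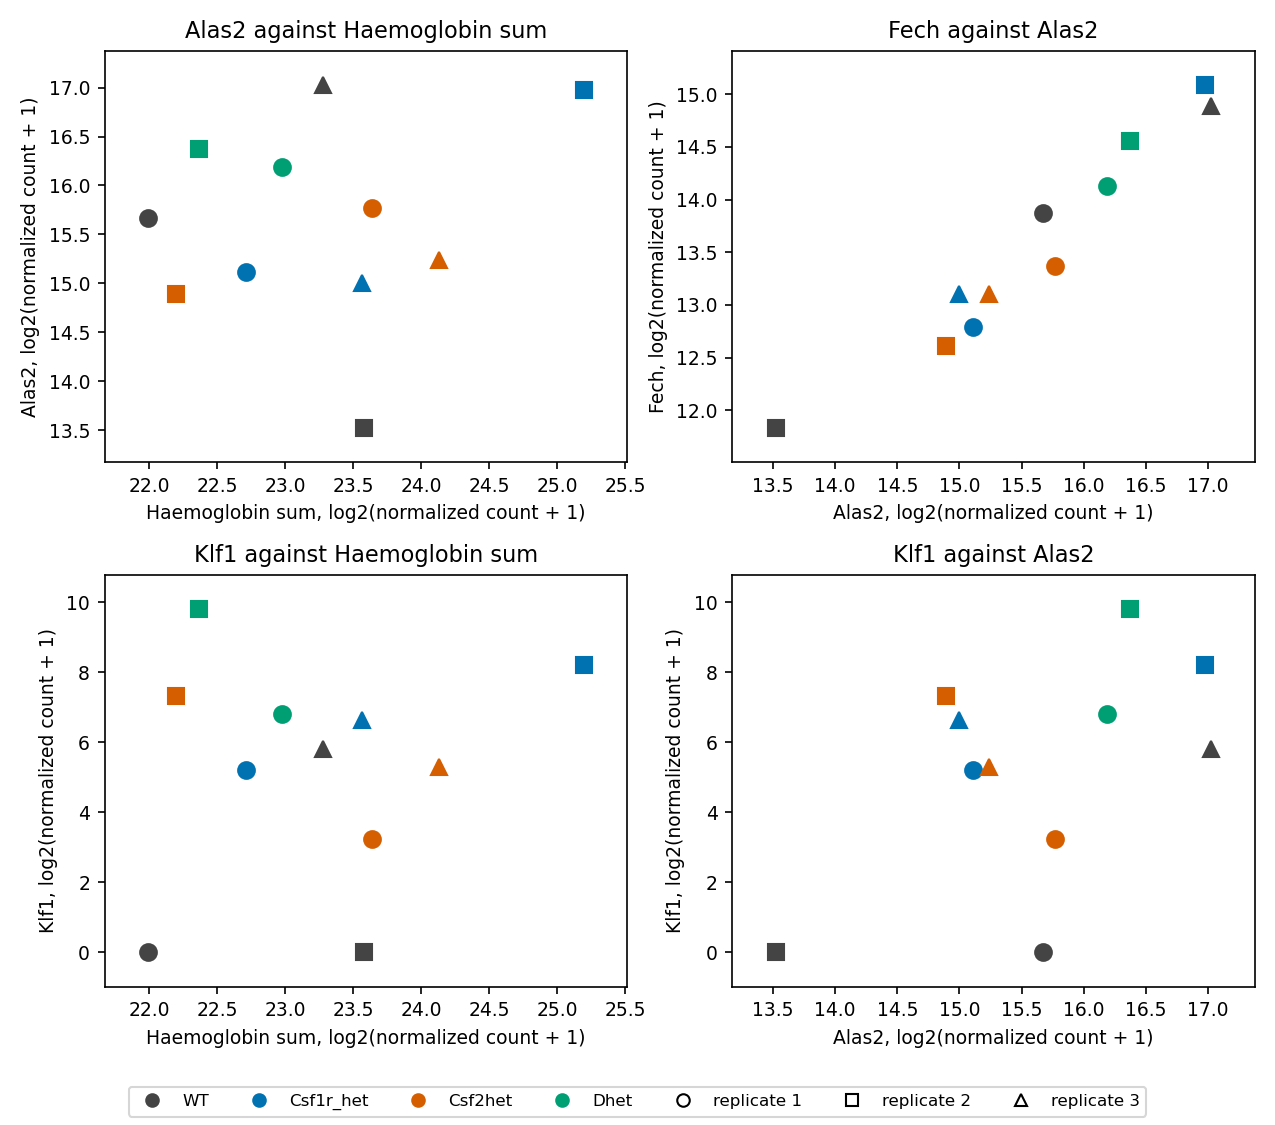
Each point is 1 of 11 libraries, coloured by genotype group and shaped by replicate, on log2(normalized count + 1) axes, in 4 panels: Alas2 against the haemoglobin sum, Fech against Alas2, and Klf1 against each of the haemoglobin sum and Alas2. Alas2 and the haemoglobin sum scatter widely (r = 0.174), Fech lies close to a line with Alas2 (r = 0.973), and Klf1 has r = 0.128 and 0.539.

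A group of late transcripts did rise with Alas2. In a limma fit of each gene's log2 value on log2 Alas2 over the 11 libraries, 5 of 30 members passed an adjusted p of 0.05, all with a positive slope, against 0.242% of 13222 genes tested, 0.219% with a positive and 0.0227% with a negative slope. The same fit on the haemoglobin sum called 0 of 27 members and 0.0% of 13219 genes, with 3 members and 16.0% of genes at an unadjusted p under 0.05. edgeR on the recovered reads called 0 members on the haemoglobin sum, against 0.0073% of genes, and the same 5 on Alas2, against 1.88% of genes. Over all members, 28 of 30 slopes on Alas2 were above 0, with a median of 0.67 against a median of -0.00 over all genes. With the haemoglobin sum 23 of 27 slopes were above 0, with a median of 0.22 against -0.05. Leaving out single libraries left 2 to 5 members past the threshold for Alas2. Fech passed in each of these fits. Without WT replicate 2 the members called were Fech and Slc4a1, and without WT replicate 3 or Csf1r_het replicate 3 they were Fech and Bpgm.

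Fech, which inserts iron into the ring in the last step of heme synthesis, followed Alas2 most closely among the members. It lies at chr18:64456550-64489066 (ENSMUSG00000024588.8, minus strand) and measured 14997, 3644 and 30366 in WT, 7079.5, 34804 and 8819 in Csf1r_het, 10597, 6269.9 and 8818 in Csf2het, and 17938 and 24103 in Dhet. The lowest library was WT replicate 2 and the highest Csf1r_het replicate 2, and all groups overlapped. Its slope on Alas2 was 0.97 log2 units per log2 unit (SE 0.11, limma adjusted p = 0.00380), with r = 0.973 for Alas2 and 0.189 for the haemoglobin sum. Slc25a37, the mitochondrial iron importer mitoferrin 1 (ENSMUSG00000034248.7, chr14:69241848-69285112, minus strand), measured 5151, 2094 and 10877 in WT, 2156, 19157 and 3962 in Csf1r_het, 7181, 3886 and 4809.7 in Csf2het, and 7167 and 6874 in Dhet. It too was lowest in WT replicate 2 and highest in Csf1r_het replicate 2, with overlap of all groups. The slope was 0.83 (SE 0.13, limma adjusted p = 0.0201).

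Bpgm makes 2,3-bisphosphoglycerate, which lowers the oxygen affinity of haemoglobin. This gene (ENSMUSG00000038871.5, chr6:34476207-34505613, plus strand) measured 16835, 4934 and 51444 in WT, 18081, 68004 and 19309 in Csf1r_het, 26169, 15739 and 28098 in Csf2het, and 32827 and 35859 in Dhet. WT replicate 2 was 13.8-fold below Csf1r_het replicate 2, with all groups overlapping. Its slope on Alas2 was 0.94 (SE 0.13, limma adjusted p = 0.00814). Mkrn1, a ubiquitin ligase abundant in late red cell precursors (ENSMUSG00000029922.15, chr6:39397804-39420462, minus strand), measured 14018, 7042 and 33573 in WT, 11330.1, 56673 and 15148 in Csf1r_het, 21655, 11336 and 16555 in Csf2het, and 19141 and 24268 in Dhet. It had the same lowest and highest libraries and a slope of 0.74 (SE 0.13, limma adjusted p = 0.0274). Epb41 encodes protein 4.1, which ties spectrin to the red cell membrane and is also made in other cells (ENSMUSG00000028906.16, chr4:131923413-132075321, minus strand). It measured 4255, 2707 and 9685 in WT, 3129, 19153 and 4596 in Csf1r_het, 4852, 2405 and 4408 in Csf2het, and 7217 and 7235 in Dhet. Here Csf2het replicate 2 was the lowest library and Csf1r_het replicate 2 the highest. The slope was 0.74 (SE 0.14, limma adjusted p = 0.0432). Among these 5 genes and Alas2, which were grouped by these slopes, pairwise r ranged from 0.858 to 0.973 over 15 pairs, given as a description.

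The other heme synthesis enzymes were far less abundant than Alas2, and those other than Fech followed it less closely than Fech did. Per kb of exon the mean level was 1100.0 normalized counts for Fech, 660 for Urod, 458 for Alad, 91.3 for Uros, 74.9 for Cpox and 69.7 for Ppox, against 25708 for Alas2. Alad, which joins 2 molecules of aminolevulinic acid, ranged from 221 to 1478, and r with Alas2 was 0.470. Urod, the decarboxylase that makes coproporphyrinogen, varied least of the 7 enzymes, from 967 to 2271 (r = 0.595 with Alas2). These 6 genes act in most cells, and their transcripts need not come from red cells. Cpox and Ppox, the oxidases that act before Fech, ranged from 202 to 862 (r = 0.744) and from 121 to 674 (r = 0.723). Uros, which closes the ring, ran against the globin transcripts, with r = -0.823 for the haemoglobin sum and -0.045 for Alas2. It was lowest in Csf1r_het replicate 2 at 25.2, the library with the largest globin share, and highest in Dhet replicate 1 at 766. The slope of Uros on the haemoglobin sum was -1.17 (SE 0.27, limma adjusted p = 0.0838) and passed, among the alternatives run, only in the fit scaled to the total without globin genes, where 352 of all genes also had a negative slope past it and 6 a positive one.

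Membrane and blood group genes were scarce and variable. The chloride and bicarbonate exchanger Slc4a1 (band 3) was the most abundant of them per kb after Epb41, at 337 normalized counts per kb, and ranged from 445 to 3653 with r = 0.766 for Alas2 and 0.239 for the haemoglobin sum. The membrane protein Epb42, a partner of band 3, ranged from 111 to 843 (r = 0.779 with Alas2), and the translocator Tspo2 from 129 to 925 (r = 0.797). Sptb, erythroid beta spectrin, was highest in the Dhet libraries, at 453 and 354, against 26.2 to 199 elsewhere. The Rh antigen gene Rhd ranged from 5.78 to 1799, its partner Rhag from 0.479 to 809.6, the blood group genes Kel and Ermap from 0 to 467 and from 12.6 to 586. Rhd, Rhag and Ermap were highest in Dhet replicate 2 and Kel in Csf1r_het replicate 2. The count of 0 for Kel in Csf2het replicate 1 allows up to 3.13 normalized counts, a limit of 3 reads that covers counting error only. Of the late maturation genes, Hemgn, a nuclear factor of erythroid precursors, ranged from 9.58 to 626 with high values only in Csf1r_het replicate 2 and Dhet replicate 2, at 579 and 626 against at most 122 elsewhere. Xpo7, a nuclear exporter that is widely expressed, hardly varied, from 610.5 to 1022, and Fam210b, a mitochondrial protein linked to iron use in heme synthesis, ranged from 662 to 2353.

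**Figure D3:**
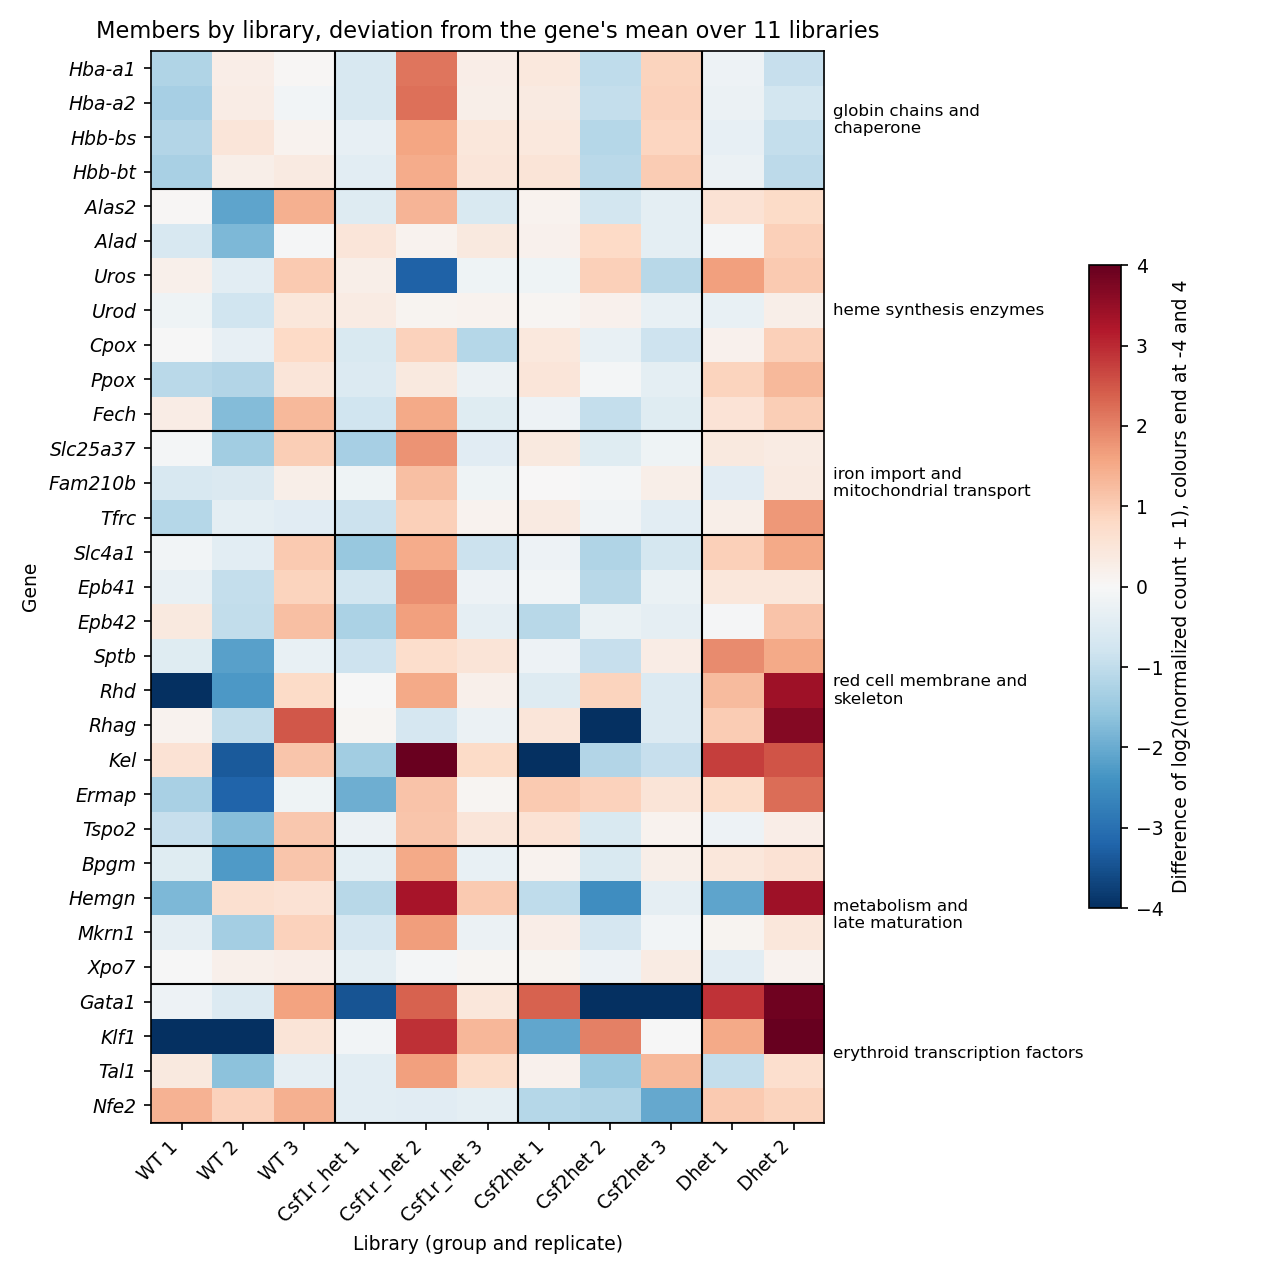
Difference of log2(normalized count + 1) from the gene's mean over 11 libraries, for 31 members (rows, by role) in each library (columns, by genotype group), with colours ending at -4 and 4. The 4 globin rows share a pattern, and 25 of 31 rows reach their highest value in Csf1r_het replicate 2 or Dhet replicate 2.

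The precursor genes were low and uneven, and followed neither globin nor Alas2 past the threshold. Gata1, the master regulator of red cell precursors and platelet precursors (ENSMUSG00000031162.14, chrX:7959260-7978071, minus strand), measured 21.2, 16.5 and 75.7 in WT, 1.32, 129 and 33.7 in Csf1r_het, 129, 0 and 0 in Csf2het, and 186 and 374 in Dhet. Csf2het replicates 2 and 3 had 0 reads, which allows up to 1.44 and 4.09 normalized counts, and Csf1r_het replicate 1 had 1 read, whereas Dhet replicate 2 had 650 reads. Klf1, the activator of adult beta globin (ENSMUSG00000054191.8, chr8:84901928-84905291, plus strand), measured 0, 0 and 55.1 in WT, 35.6, 296 and 99.0 in Csf1r_het, 8.34, 159 and 38.2 in Csf2het, and 111 and 890.1 in Dhet. WT replicates 1 and 2 had 0 reads, allowing up to 1.93 and 2.91 normalized counts, and Dhet replicate 2 had 1548 reads. Tfrc, the transferrin receptor, which many growing cells use to take up iron (ENSMUSG00000022797.15, chr16:32608920-32632794, plus strand), measured 165, 281 and 269 in WT, 201, 707 and 407 in Csf1r_het, 470.4, 334 and 275 in Csf2het, and 437 and 1223 in Dhet. Dhet replicate 2 held the highest value of all 3 genes, Dhet lay above WT in each, and the Csf1r_het and Csf2het libraries overlapped WT in each. Tal1, which acts in a complex with Gata1, ranged from 31.1 to 309.7 and was highest in Csf1r_het replicate 2, with r = 0.50 for both Alas2 and the haemoglobin sum.

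The 6 relations of the precursor genes were tested over the 11 libraries, with Benjamini-Hochberg adjustment over the 6. For Gata1, r was 0.147 with the haemoglobin sum (two-sided permutation p = 0.670, adjusted p = 0.705) and 0.581 with Alas2 (permutation p = 0.0608, adjusted p = 0.266). Spearman's rho was 0.064 for the first (permutation p = 0.852) and 0.706 for the second (permutation p = 0.0187, adjusted p = 0.112). For Klf1, r was 0.128 with the haemoglobin sum (permutation p = 0.705, adjusted p = 0.705) and 0.539 with Alas2 (permutation p = 0.0886, adjusted p = 0.266), and rho was -0.032 (permutation p = 0.928) and 0.405 (permutation p = 0.217). For Tfrc, r was 0.257 with the haemoglobin sum (permutation p = 0.445, adjusted p = 0.667) and 0.417 with Alas2 (permutation p = 0.202, adjusted p = 0.405), and rho was 0.327 (permutation p = 0.327) and 0.318 (permutation p = 0.343). For each gene Pearson's r with Alas2 was the larger over the 11 libraries, but none of the 6 passed the adjustment, and the difference between the 2 correlations of a gene was not tested.

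The size of these correlations changed with the libraries used. Without WT replicate 1 and Csf1r_het replicate 2, the libraries farthest from the median of the haemoglobin sum, r with that sum turned negative, at -0.049 for Gata1, -0.592 for Klf1 and -0.334 for Tfrc (exact permutation p = 0.899, 0.0895 and 0.401, n = 9). Without WT replicates 2 and 3, the libraries farthest from the median of Alas2, r with Alas2 was 0.778 for Gata1, 0.308 for Klf1 and 0.649 for Tfrc (exact permutation p = 0.0168, 0.426 and 0.0581, and adjusted p = 0.101, 0.511 and 0.174, n = 9). Without Dhet replicate 2, the library of the 3 highest values, r of Tfrc with the haemoglobin sum was 0.697 (permutation p = 0.0243, adjusted p = 0.146) and that of Gata1 and Klf1 was 0.322 and 0.330. With group means subtracted, r with the haemoglobin sum was 0.484 for Gata1, 0.110 for Klf1 and 0.499 for Tfrc, and with Alas2 it was 0.527, 0.564 and 0.302 (permutation p between 0.0717 and 0.745). These p-values took no account of the group means removed and are therefore too small. Within the 8 libraries of mice aged 21 months, r with Alas2 was 0.459 for Gata1, 0.387 for Klf1 and 0.030 for Tfrc (exact permutation p = 0.265, 0.359 and 0.946). With the haemoglobin sum it was 0.065, 0.091 and 0.416 there (exact permutation p = 0.888, 0.840 and 0.304), so that for Tfrc the order of the 2 correlations turned.

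**Figure D4:**
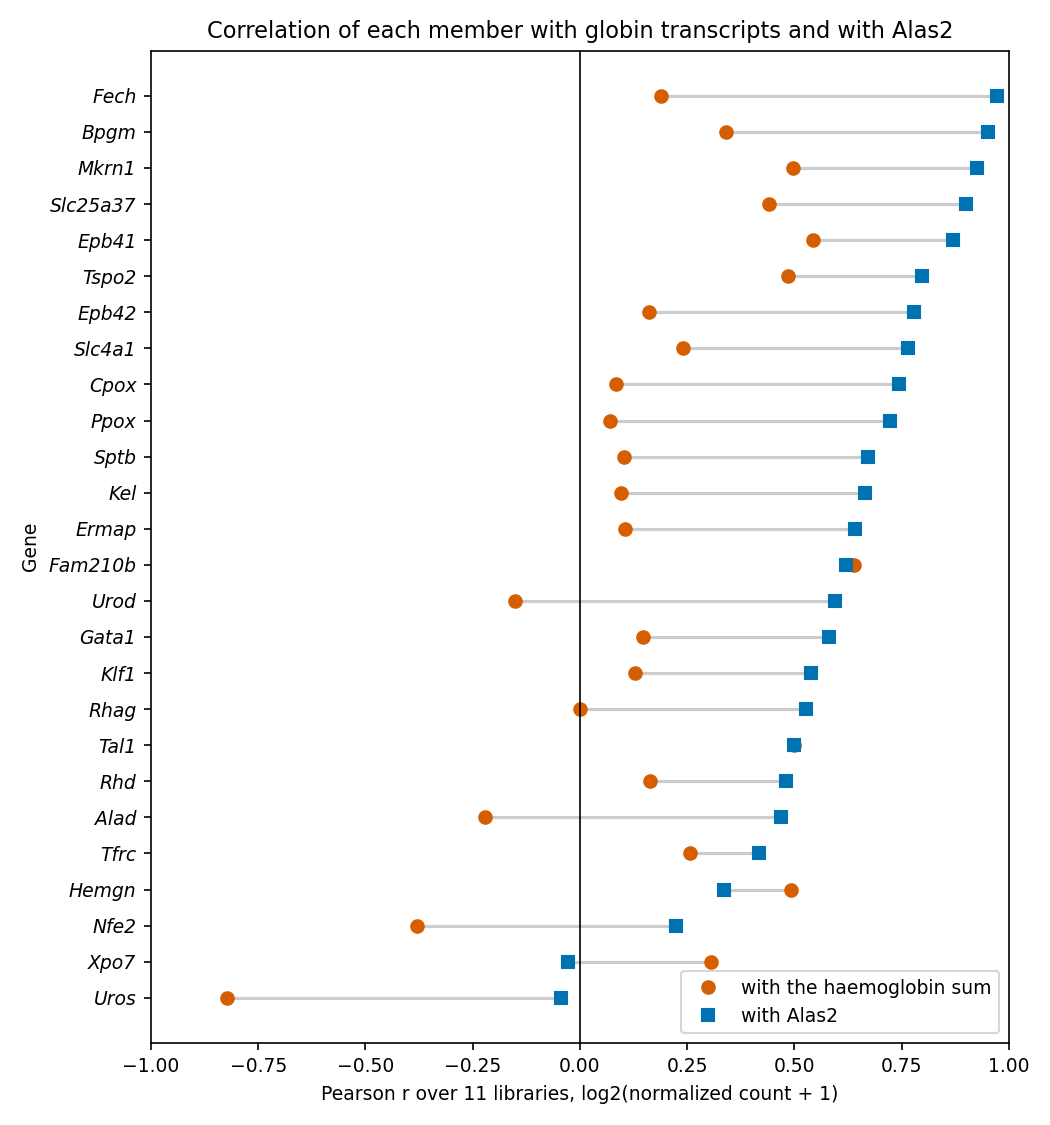
Pearson r of log2(normalized count + 1) over 11 libraries for 26 members, with the haemoglobin sum (circles) and with Alas2 (squares), ordered by r with Alas2. For 23 of 26 genes the square lies to the right of the circle, from Fech (0.973 and 0.189) down to Uros (-0.045 and -0.823).

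Of the 26 members other than the globin genes and Alas2, 23 had a higher r with Alas2 than with the haemoglobin sum, a share of 88.5%, against 58.0% of 13192 genes that are no members. Fam210b, Hemgn and Xpo7 were the exceptions. The median r was 0.16 with the haemoglobin sum over 27 members, against -0.07 over all genes, and 0.59 with Alas2 over 30 members, against -0.01. The highest values gathered in the 2 libraries of mice aged 24 months. Csf1r_het replicate 2 held the highest value of 14 members, among them the 4 globin genes, Fech, Bpgm and Slc25a37, and Dhet replicate 2 that of 11 members, among them Gata1, Klf1, Tfrc and Slc4a1. These 2 libraries held the highest value of 25 of 31 members, against 23.0% of all genes tested. WT replicate 2 was the lowest library for 12 of 31 members, against 18% of all genes, and WT replicate 1 for 8, against 8.25%. Since each of these ages occurs once in its group, age and the single library cannot be told apart. Dhet replicate 2 also differed from every other library in the sex-linked genes Ddx3y and Xist, and this cannot be told apart from its age. In Dhet replicate 2 the sum of 12 neutrophil genes was 792181, within the WT range of 55808 to 856497. Elane and Mpo, 2 genes of this list that mark immature neutrophils in marrow, were higher there than in any other library. They stood at 12985 and 14124, against at most 6781 and 3630 elsewhere. Both were picked after their values were seen, and the other genes of the list are not given singly here. The part of immature neutrophils in the precursor values was not tested.

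Between genotypes, Nfe2 was the 1 member of 31 that limma called. Of all genes, 1.32% were called in Csf1r_het, 3.65% in Csf2het, 3.32% for the mean of the heterozygous groups and 1.85% for the interaction. A count of 1 among 31 members is near these shares, so no result for the members as a set is read from it. Nfe2 is a transcription factor of red cell and platelet precursors that other blood cells also express (ENSMUSG00000058794.12, chr15:103248212-103258403, minus strand), and it measured 3293, 2381 and 3369 in WT, 946, 923 and 963 in Csf1r_het, 577, 549 and 307 in Csf2het, and 2594 and 2363 in Dhet. All Csf1r_het and all Csf2het libraries lay below all WT libraries, as in 12.8% and 14.3% of all genes, and Dhet overlapped WT. Means were 3014 ± 549.9 (SD, n = 3) in WT, 944 ± 20.2 (SD, n = 3) in Csf1r_het, 477 ± 149 (SD, n = 3) in Csf2het and 2478 ± 163 (SD, n = 2) in Dhet. Against WT, Nfe2 fell by 1.66 log2 units in Csf1r_het (SE 0.31, limma adjusted p = 0.0309) and by 2.69 in Csf2het (SE 0.31, limma adjusted p = 0.000775), where the groups shared the same WT libraries. In Dhet it differed by -0.27 (SE 0.35, limma adjusted p = 0.826). The interaction of both copy losses, the Dhet difference minus the sum of the single ones, was 4.08 (SE 0.47, limma adjusted p = 0.00362). The mean of the 3 heterozygous groups fell by 1.54 (SE 0.26, limma adjusted p = 0.00785).

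The Csf2het call held in each fit that left out 1 library (limma adjusted p between 0.00103 and 0.00779). The Csf1r_het call was lost without WT replicate 1 or 3, without each Csf1r_het library and without Csf2het replicate 1 or 2 (limma adjusted p between 0.0506 and 0.145), with fold changes between -1.67 and -1.57, and also with age as a covariate (limma adjusted p = 0.0512) and among mice of 21 months alone (limma adjusted p = 0.545). Monocyte and neutrophil genes are given beside Nfe2. The sum of 7 monocyte markers, Ccr2, Ly6c2, Plac8, Chil3, F13a1, Ms4a4c and Vcan, was 70777 to 160266 in WT, 49595 to 59286 in Csf1r_het, 11929 to 20042 in Csf2het and 58898 to 67959 in Dhet. In limma, 7 of 7 were lower past the threshold in Csf2het (2.84% of all genes), 0 of 7 in Csf1r_het (0.885% of all genes), and 4 of 7 had a positive interaction past it (1.2% of all genes). In Dhet the monocyte sum lay below every WT library, with a median fold change of -1.23 and 0 of 7 called, whereas Nfe2 overlapped WT. Vcan was at 0 in 3 libraries. Of platelet markers 7 of 12 were measured, with a sum of 1156 to 2180 in WT, 1677 to 2495 in Csf1r_het, 1437 to 2563 in Csf2het and 1348 to 1427 in Dhet and 0 of 7 past the threshold in any comparison, and Ppbp, Itga2b, Gp1bb and Clec1b were each at 0 in 1 library. The sum of 12 neutrophil markers was 55808 to 856497 in WT, 29208 to 496523 in Csf1r_het, 122444 to 204719 in Csf2het and 740263 to 792181 in Dhet, with 0 of 12 past the threshold. Fold changes of neutrophil markers were above 0 for 1 of 12 in Csf1r_het, 2 of 12 in Csf2het and 12 of 12 in Dhet, and the interaction was above 0 for 12 of 12, with a median of 3.78 against 0.15 over all genes. The part of these cells in the Nfe2 result was not tested.

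In limma no further member passed the threshold between genotypes. In Csf1r_het 1 of 31 members was called (Nfe2, lower), against 1.32% of 13223 genes, 0.431% higher and 0.885% lower. In Csf2het it was again 1 of 31, against 3.65% of genes, 0.809% higher and 2.84% lower. For the mean of the heterozygous groups it was 1 of 31, against 3.32% of genes, 0.855% higher and 2.47% lower, and for the interaction 1 of 31, against 1.85% of genes, 1.2% higher and 0.643% lower. In Dhet limma called 0 of 31 members, against 0.529% of genes, 0.0303% higher and 0.499% lower, and edgeR called 0 of 31, against 0.19% of genes. DESeq2 called 1 of 30 in Dhet, Sptb (log2 fold change 2.52, DESeq2 adjusted p = 0.0211), against 2.75% of genes. For the mean of the heterozygous groups DESeq2 called 2 of 30, Nfe2 and Ermap (log2 fold change of Ermap 2.06, DESeq2 adjusted p = 0.0354), against 9.3% of genes. At an unadjusted p under 0.05, limma had 4 members in Csf1r_het (16.2% of genes), 3 in Csf2het (17.3%), 7 in Dhet (10.1%), 7 for the mean (17.6%) and 5 for the interaction (18% of genes).

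Fold changes of the uncalled members were mostly above 0 in Dhet. Of 31 members, 25 had a fold change above 0 in Dhet, with a median of 0.81 against 0.02 over all genes, 23 in Csf1r_het, with 0.61 against -0.12, and 18 in Csf2het, with 0.16 against -0.02. These comparisons share the WT libraries, of which replicate 2 was low for many members. Without that replicate the median was 0.17 in Dhet, 0.18 in Csf1r_het and -0.15 in Csf2het. With age as a covariate the Dhet median was 0.15. All 7 heme synthesis genes lay above 0 in Dhet, from 0.14 to 1.68, whereas the 4 globin genes lay between -0.46 and -0.11. Without Dhet replicate 2, Hba-a1, Hba-a2 and Hbb-bt were at 0.095, 0.14 and 0.013 and Hbb-bs at -0.13. Urod was then at -0.14 and Cpox at 0.011, while the other heme synthesis genes stayed above 0. The globin genes were between 0.74 and 0.98 in Csf1r_het and between 0.23 and 0.48 in Csf2het, below their limma standard errors of 1.23 to 2.64. These standard errors draw in part on a trend fitted over all genes and do not measure the spread of the globin values alone. Alas2 was 0.29 (SE 0.77) in Csf1r_het, -0.10 (SE 0.77) in Csf2het and 0.88 (SE 0.87) in Dhet. In 8 of 31 members both Dhet libraries lay above every WT library, against 13.5% of genes tested, namely Ppox, Sptb, Rhd, Kel, Ermap, Tfrc, Gata1 and Klf1. In Csf1r_het this held for Alad alone (8.61% of genes) and in Csf2het for Ermap alone (11% of genes), and 1 member, Nfe2, lay below in each (12.8% and 14.3%).

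Klf1 had the largest fitted difference in Dhet at 6.37 (SE 1.83), followed by Rhd at 4.39 (SE 1.25) and Kel at 3.19 (SE 1.80) (limma adjusted p = 0.223, 0.221 and 0.579). With 0 reads in 2 WT libraries, the fitted value of Klf1 depends on the pseudocount of 1. Tfrc and Gata1 differed by 1.65 (SE 0.62) and 3.09 (SE 2.11) (limma adjusted p = 0.384 and 0.634). Without Dhet replicate 2 the values were 4.87 for Klf1, 3.33 for Rhd, 0.91 for Tfrc and 2.59 for Gata1, and Hemgn moved from 0.84 to -1.92. Without WT replicate 3, the one WT library with Klf1 reads, Klf1 (8.30, limma adjusted p = 0.0323) and Rhd (5.80, limma adjusted p = 0.0227) passed in Dhet. Slc4a1 had an interaction of 2.41 (SE 0.97, limma adjusted p = 0.215), which passed without Csf1r_het replicate 2 (3.30, limma adjusted p = 0.0348).

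**Figure D5:**
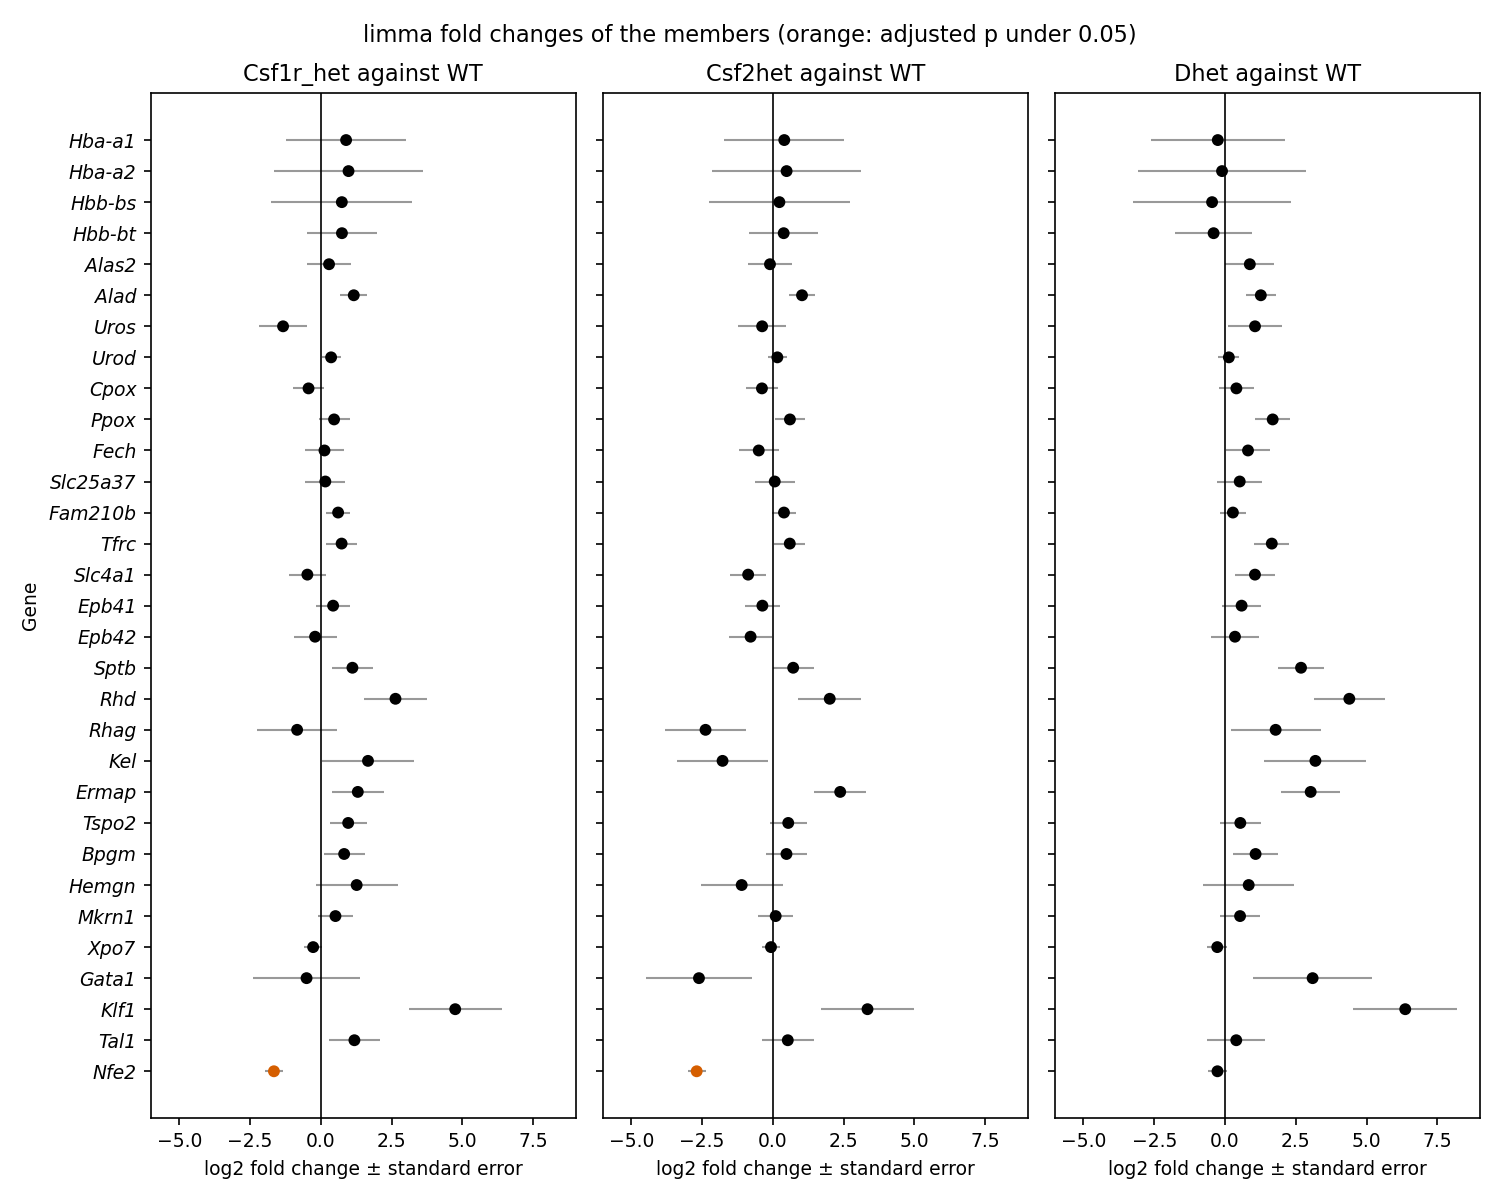
Log2 fold change against WT with its standard error, from limma, for 31 members in Csf1r_het, Csf2het and Dhet, with adjusted p under 0.05 in orange. Nfe2 is orange in Csf1r_het and Csf2het, 25 of 31 points lie above 0 in Dhet, and the bars of the globin genes cross 0. The bars draw in part on a trend fitted over all genes.

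Other genes of red cells and of heme handling were examined in the same fits. Of 38 further late erythroid genes, 35 had a positive slope on Alas2, with a median r of 0.50. Of these, 4 passed the threshold, against 0.242% of all genes, namely Ube2l6, Ncoa4, Riok3 and Bcl2l1. With the haemoglobin sum 24 slopes were positive, the median r was 0.15 and 0 passed. Positive slopes on Alas2 were not particular to erythroid genes. They were found for 7 of 7 astrocyte genes (median r 0.50, 1 called), 5 of 5 oligodendrocyte genes (0.37), 7 of 9 microglia genes (0.36) and 10 of 12 neutrophil genes (0.28). For B cell, T and NK cell and monocyte genes the counts were 0 of 8, 1 of 8 and 1 of 7. Ube2l6, a ubiquitin-conjugating enzyme, had a slope on Alas2 of 1.06 (SE 0.13, limma adjusted p = 0.00435). Ncoa4, the receptor that sends ferritin to lysosomes, had a slope of 0.77 (SE 0.10, limma adjusted p = 0.00665). Of 15 further genes of heme synthesis and transport, 10 had a positive slope and 1 passed, the mitochondrial carrier Slc25a39 at 0.77 (SE 0.13, limma adjusted p = 0.0274). Of 19 genes of heme breakdown and iron handling 1 passed on Alas2, Ncoa4 again, and 1 between genotypes, Hfe. In the mean of the 3 heterozygous groups against WT, where 3.32% of all genes were called, Hfe differed by -0.95 (SE 0.23, limma adjusted p = 0.0412). Of 19 further erythroid transcription factor genes 0 passed in any comparison, with Gfi1b at -4.09 in Csf2het (SE 1.60, limma adjusted p = 0.198). Between genotypes, Gmpr, a guanosine monophosphate reductase of red cells, was 1 of 38 late erythroid genes called in Csf2het, against 3.65% of all genes. It rose there by 1.19 (SE 0.30, limma adjusted p = 0.0451). The counts for Hfe and Gmpr are near the shares of all genes called. Hp, 1 of 2 scavenging genes measured, encodes the haemoglobin-binding protein haptoglobin and is also a neutrophil and monocyte gene. It fell by 3.44 in Csf2het (SE 0.50, limma adjusted p = 0.00246).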

How the data were processed

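RNA of 11 libraries of sorted microglia was measured by sequencing. Per the submitters' processing notes, kallisto 0.43.1, DESeq2 (its version is not known here) and the build mm10 were used. The deposited signal is a normalized count, for which the authors scaled each library's gene counts by its own size factor. Each library's values were whole multiples of 1 step, and 100% came out whole within 0.02 reads, which gave reads and depth. More deeply sequenced libraries have less counting error.

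Groups came from the labels. The design foresaw edgeR for raw counts and limma for values divided by size factors, so limma was the main test. Members and lists were chosen with earlier results of these data known. limma 3.58.1 (R 4.3.3, trended prior, 7 residual and 5.90 prior degrees of freedom) was fitted to log2(normalized count + 1) of the 13223 genes with a mean of at least 10, with 4 groups in 1 fit, and slopes on the haemoglobin sum or on Alas2 in a second fit, with Benjamini-Hochberg adjustment at 0.05 over all genes. Slopes on Alas2 were planned as an alternative. The 6 correlations used permutation tests with 100000 resamples, or all permutations where n was under 10. Alternatives were edgeR 4.0.16 and DESeq2 1.42.0 on recovered reads, other filters, pseudocounts and scalings, fewer libraries and covariates. The scripts were tested on simulated data. Values in every library are given for the globin genes, Alas2, Gata1, Klf1, Tfrc and members that passed a test. Genes in lists were named by lowest p among those called, and Elane, Mpo, Ddx3y, Xist and the genes named for their slope on Alas2 were chosen after their values were seen. A listed marker gene is not reported here and was left out of its list. Coordinates are those of the deposited table, equal to GENCODE vM21 for 28 of 31 members.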

Additional observations from a re-analysis of the deposited data

Results flagged for a closer look

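The fitted difference of Nfe2 with the loss of a Csf2 copy was not the same in the Csf1r genotypes. The interaction on the log2 scale was 4.08 (SE 0.47, limma adjusted p = 0.00362), with 2381 to 3369 normalized counts in WT, 923 to 963 in Csf1r_het, 307 to 577 in Csf2het and 2363 to 2594 in Dhet. Hp, the haptoglobin gene, showed the same form, with an interaction of 4.40 (SE 0.75, limma adjusted p = 0.0154). The interaction was also above 0 for 12 of 12 neutrophil markers, with a median of 3.78 against 0.15 over all genes. Of the monocyte markers, 4 of 7 had a positive interaction past the threshold (1.2% of all genes). The part of these cells in the results for Nfe2 and Hp was not tested. Both results rest on 2 Dhet libraries. Among mice of 21 months alone limma called 0 genes for the interaction (1748 at an unadjusted p under 0.05), so neither call held there, and that of Nfe2 was 4.12 (limma adjusted p = 0.114).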

How the results depend on the processing

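Libraries differed in depth and in globin share, and small groups limit what can be seen. Nfe2 was no longer called in Csf1r_het, leaving 0 members, with scaling to the total without globin genes, with mice of 21 months alone, with the replicate block, with age as a covariate and with only the 2 groups compared. With mice of 21 months alone the mean of the heterozygous groups and the interaction also had 0 members. DESeq2 gave 1 member in Dhet (Sptb) and 2 for the mean (Nfe2 and Ermap). Leaving out single libraries gave 0 to 1 members in Csf1r_het, 1 to 1 in Csf2het, 0 to 2 in Dhet, 0 to 3 for the mean and 1 to 2 for the interaction. It gave r of -0.051 to 0.375 for Gata1 with the haemoglobin sum and 0.539 to 0.738 with Alas2, -0.162 to 0.330 and 0.259 to 0.664 for Klf1, and -0.011 to 0.697 and 0.301 to 0.573 for Tfrc, with r with the haemoglobin sum below 0 for Gata1 without Csf1r_het replicate 2 (-0.044) or Csf2het replicate 2 (-0.051), for Klf1 without WT replicate 1 (-0.162) or Csf1r_het replicate 2 (-0.126) and for Tfrc without Csf1r_het replicate 2 (-0.011). Without the 2 libraries farthest from the median, r with the haemoglobin sum was -0.049, -0.592 and -0.334 for Gata1, Klf1 and Tfrc, and rho was -0.032 for Klf1. The slope on the haemoglobin sum called 1 member, Uros, under scaling without globin genes, and that on Alas2 called 5, 2 to 5 without single libraries and 4 with a group term. Scaling without globin genes moved the median of all genes in Dhet from 0.02 to 0.23 and centring on the median changed the higher and lower calls in Csf1r_het from 57 and 117 to 82 and 84; the causes were not tested. Over 3498 fold changes of members under all alternatives, 22 changed a call and 194 uncalled ones changed sign.

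The replicate numbers share no stated litter or batch. In their deviations, same-numbered libraries of different groups correlated at -0.214 to 0.062 over 15 pairs. Libraries of different numbers correlated at -0.201 to 0.314. Groups of so few libraries cannot decide whether same-numbered libraries share an unstated litter or batch, and no conclusion is drawn from these values. With the replicate block, Klf1 correlated with the haemoglobin sum at -0.224 and with Alas2 at 0.791, and 0 members were called in Csf1r_het. The permutation p of 0.00451 for Klf1 with Alas2 (adjusted p = 0.0271) took no account of the group and replicate terms removed. It is therefore too small, and no pass is read from it.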

Other observations

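Outside the erythroid lists, the genes of mean normalized count of at least 50 whose log2 values were most like the haemoglobin sum over the 11 libraries were the pseudogene Cyp4b1-ps2 (r = 0.915), the urokinase gene Plau (0.913), the iron-sulphur cluster co-chaperone gene Hscb (0.912) and the cytokine gene Il23a (0.895), although 0 genes passed the limma fit on that sum. The genes most like Alas2 were Psme3, a proteasome activator subunit (r = 0.953), Smox, spermine oxidase (0.944), Gclm, a subunit of the enzyme that starts glutathione synthesis (0.943), and Isca1, an iron-sulphur cluster assembly protein (0.938). Each of these 4 passed the limma fit on Alas2, with slopes of 0.83, 0.65, 0.87 and 0.70. In all 32 genes passed that fit, 29 with a positive slope, and the 3 with a negative slope were Rps27rt (-1.34), Hsd17b11 (-0.99) and Snrpd3 (-0.58). The balance of directions changed with the fit: edgeR on recovered reads called 46 genes with a positive and 211 with a negative slope, and limma called 140 and 390 without Csf1r_het replicate 2 and 108 and 170 without Csf2het replicate 2.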
